A study of Mus musculus with 4 samples.

Results

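The enzymes described here burn fatty acids in mitochondria or handle the acyl-CoA and ketone bodies around that process: acyl-CoA synthetases, acyl-CoA dehydrogenases, the enzymes of the beta-oxidation spiral, acyl-CoA thioesterases and ketone enzymes. They were chosen by name, as 34 genes, and each was read from its brightest probe set by the mean of the 4 arrays, among those with exactly 1 gene symbol in the platform annotation. Of the 34, 29 were measured in this way, among 17097 genes in all. Acsl1, Acad10, Hadha, Etfb and Bdh1 had no such probe set and were not analysed here. All 29 had mean values above background in both groups, where background is a log2 value of 2.55. This is the highest value on any array of the nonspecific control probe sets, leaving out those of the highest GC content.

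Expression was measured in mouse brown adipocytes on Affymetrix PM strip arrays. The cells expressed an shRNA against Blnc1 (a long noncoding RNA of brown fat, brown fat lncRNA 1), with 2 arrays, or a scrambled control shRNA, with 2 arrays, and both groups were differentiated for 6 days before RNA was taken. The replicates are labelled as biological. The strain, the source of the cells and the number of shRNA sequences or cell pools are not given in the sources used here, and the small number of arrays limits the precision of every value. All values are on the log2 scale of the deposited table, and a difference is the shBlnc1 mean minus the scramble mean. A gene was called when its adjusted p in limma, with Benjamini-Hochberg adjustment over all 17097 genes, was under 0.05.

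Long-chain fatty acids are activated to acyl-CoA by acyl-CoA synthetases and carried into mitochondria by the carnitine shuttle. Each turn of beta-oxidation then runs through an acyl-CoA dehydrogenase, an enoyl-CoA hydratase, a hydroxyacyl-CoA dehydrogenase and a thiolase, and the electrons taken by the dehydrogenases pass through electron transfer flavoprotein to the respiratory chain. Thioesterases undo the activation by splitting acyl-CoA into free fatty acid and CoA. Brown adipocytes rely on this route for heat production. The set also holds enzymes outside mitochondria, such as the cytosolic thioesterase Acot1 and the synthetases Acsl3 and Acsl4.

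Most measured genes of the oxidation spiral were not called, while some synthetases, a few single steps and some thioesterases were. Of the 29 genes, 6 were higher on the shBlnc1 arrays (Acsl3, Acsl4, Acsl5, Acad9, Acot1 and Acot2), 4 were lower (Echs1, Etfa, Eci1 and Acot13) and 19 were not called. The 10 called genes make up 34.5% of the set, which was chosen with earlier results of these data known. Over all genes 18.5% were called, with 11.4% higher and 7.18% lower, and among the genes with both groups above background, as here, 24.2% were called. The median log2 fold change was -0.04 over the set and -0.04 over all genes. In bulk RNA, fewer cells of a type and less RNA per cell cannot be told apart. Only 2 genes differed by 1 log2 unit or more, the synthetase gene Acsl5 and the hydratase gene Echs1. Acsl5, Acad9 and Echs1 passed in each fit that left out 1 array. Without shBlnc1 replicate 1, and likewise without shBlnc1 replicate 2, these 3 were the only genes of the set called. After quantile normalization 6 of the 29 were called, 3 higher and 3 lower, where 3078 of all 17097 genes were called.

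The promoters of the gene with the largest rise, Acsl5, and of the gene with the largest fall, Echs1, are shown as the regulatory sequence next to the strongest differences of the set. They are RefSeq sequences of build GRCm38.p6, from 250 bases before to 50 after the annotated start, 5′ to 3′ on the gene's strand. The Acsl5 promoter lies at chr19:55253119-55253418 on the plus strand and the Echs1 promoter at chr7:140116372-140116671 on the minus strand. Capitals mark AGGTCA, the hexamer that PPAR and estrogen-related receptors bind in repeated or extended form, on either strand.
Acsl5: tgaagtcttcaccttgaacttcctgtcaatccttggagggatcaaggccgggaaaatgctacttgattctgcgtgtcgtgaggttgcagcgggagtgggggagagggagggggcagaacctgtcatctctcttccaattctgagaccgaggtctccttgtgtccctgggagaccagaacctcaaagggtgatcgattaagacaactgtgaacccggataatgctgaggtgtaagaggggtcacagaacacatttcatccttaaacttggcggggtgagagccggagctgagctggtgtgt
Echs1: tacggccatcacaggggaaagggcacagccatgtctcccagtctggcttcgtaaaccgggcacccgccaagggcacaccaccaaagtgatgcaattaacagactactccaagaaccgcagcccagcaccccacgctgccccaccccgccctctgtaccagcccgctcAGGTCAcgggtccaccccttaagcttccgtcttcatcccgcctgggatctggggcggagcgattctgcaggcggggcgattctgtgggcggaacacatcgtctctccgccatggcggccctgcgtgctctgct
The Echs1 promoter held 1 match, which ends 77 bases before the start, and the Acsl5 promoter held 0. RefSeq promoters were found for 24 of the 29 genes, 27 promoters in all. The hexamer AGGTCA was present on either strand in 4 of these 27 (those of Acadm, Acadvl, Acsl6 and Echs1), and in 16.3% of the 32851 promoters of the table. The longer motif TCAAGGTCA, which contains the hexamer and is known for estrogen-related receptors, was present in 1 of the 27, that of Acsl6, and in 0.423% of all promoters. The direct repeat of the hexamer with 1 base of any kind between its copies (DR1), known for PPAR, was present in 0 of the 27 and in 0.0396% of all promoters. These matches describe the letters in these windows and were not tested for binding.

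Among the acyl-CoA synthetases, which activate long-chain fatty acids, 3 of 4 measured were called higher on the shBlnc1 arrays and 0 lower by limma. These 3 also had an unadjusted p under 0.05, a level that 33.8% of all genes reached. By call, 11.4% of all genes were higher and 7.18% lower. Acsl1, of the same family, was not measured. Acsl5, found at mitochondria and the endoplasmic reticulum, read 8.79 and 8.79 on the shBlnc1 arrays, against 7.64 and 7.68 on the scramble arrays. The shBlnc1 arrays lay more than 1 log2 unit above both scramble arrays and the replicates of each group nearly coincided. This is a 2.18-fold rise (log2 fold change 1.12 ± 0.10, SE; limma adjusted p = 0.00097), and without 1 array the adjusted p was at most 0.0106.

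Acsl4, a synthetase known for its preference for arachidonic acid, read 6.62 and 6.82 on the shBlnc1 arrays, against 6.08 and 6.35 on the scramble arrays. The groups did not overlap, but the scramble replicates lay about as far apart as the nearest arrays of the groups. The rise was 1.42-fold (log2 fold change 0.50 ± 0.13, SE; limma adjusted p = 0.0401). The adjusted p was 0.0899 and 0.223 without shBlnc1 replicates 1 and 2, 0.111 without scramble replicate 1, and 0.111 after quantile normalization. At a dimmer probe set of Acsl4 the difference was 0.46 (limma adjusted p over all probe sets = 0.0257).

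Acsl3, a synthetase of the endoplasmic reticulum and lipid droplets, read 6.93 and 6.94 on the shBlnc1 arrays, against 6.46 and 6.58 on the scramble arrays. Both shBlnc1 arrays were above both scramble arrays, a 1.34-fold rise (limma adjusted p = 0.0333). The adjusted p was 0.150 and 0.173 without shBlnc1 replicates 1 and 2, 0.0895 without scramble replicate 1 and 0.111 after quantile normalization. At a second probe set of Acsl3 the difference was 0.57 (limma adjusted p over all probe sets = 0.0214), and the third, at background in both groups, one of -0.31. With the mean of all 3 the log2 fold change was 0.22 (limma adjusted p = 0.139). Acsl6, a synthetase known mainly from brain, read 2.75 and 2.54 on the shBlnc1 arrays, against 2.59 and 3.02 on the scramble arrays, close to background, and the groups overlapped.

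**Figure D1:**
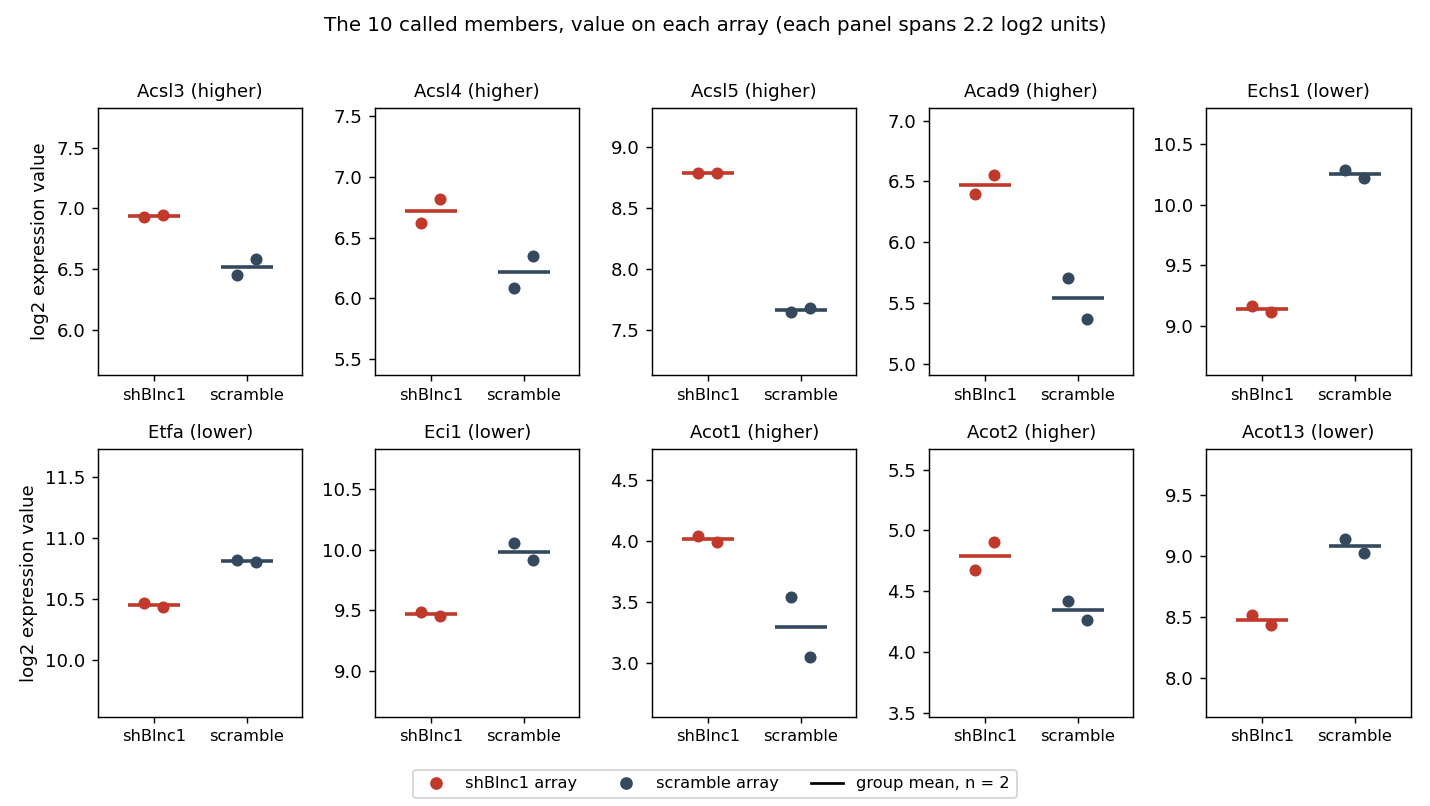
Log2 expression value (vertical axis) of the 10 called genes on each array, shBlnc1 at left and scramble at right, with points for arrays and lines for group means (n = 2 each); every panel spans the same height. The groups are separated in each panel, most widely for Acsl5 and Echs1 and by the narrowest margins for Acot2 and Acsl4.

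The acyl-CoA dehydrogenases, which carry out the opening step of each turn, held 1 higher gene and 0 lower ones among 7 by limma. Calls over all genes were 11.4% higher and 7.18% lower. An unadjusted p under 0.05 was reached by 2 of the 7 and by 33.8% of all genes. The very-long-chain enzyme gene Acadvl read 10.05 and 10.08 on the shBlnc1 arrays, against 10.02 and 10.12 on the scramble arrays. The long-chain enzyme gene Acadl read 10.72 and 10.68 on the shBlnc1 arrays, against 10.71 and 10.70 on the scramble arrays. In both genes the shBlnc1 values lay inside or beside the scramble range. The 95% interval of the log2 fold change was -0.25 to 0.23 for Acadvl and -0.24 to 0.23 for Acadl. The short-chain enzyme gene Acads had a log2 fold change of -0.07 (95% interval -0.33 to 0.19).

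Acadm, the medium-chain enzyme gene, read 11.15 and 11.13 on the shBlnc1 arrays, against 10.92 and 10.85 on the scramble arrays. The groups did not overlap, but the difference of 0.26 was not called (limma adjusted p = 0.12), and it was called in eBayes with an intensity trend (adjusted p = 0.000262). Acad11 and Acad12 had log2 fold changes of -0.13 and -0.20, were not called and overlapped between the groups.

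Acad9, whose product is both an acyl-CoA dehydrogenase and an assembly factor of respiratory complex I, read 6.40 and 6.55 on the shBlnc1 arrays, against 5.71 and 5.37 on the scramble arrays. All shBlnc1 values were higher, a 1.91-fold rise (log2 fold change 0.93 ± 0.14, SE; limma adjusted p = 0.00601). The other Acad9 probe set went the other way without being called: it read 4.95 and 4.78 on the shBlnc1 arrays, against 4.97 and 5.11 on the scramble arrays, a difference of -0.18 (limma adjusted p over all probe sets = 0.342). With the mean of both probe sets the log2 fold change was 0.38 (limma adjusted p = 0.0279). The rise of Acad9 therefore rests on 1 of its 2 probe sets.

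In the hydration, oxidation and cleavage steps, 1 of 4 genes was called lower and 0 higher, beside 7.18% and 11.4% of all genes. Echs1, the short-chain enoyl-CoA hydratase of the mitochondrial matrix, which also acts in valine breakdown, read 9.17 and 9.11 on the shBlnc1 arrays, against 10.29 and 10.22 on the scramble arrays. Both shBlnc1 arrays lay more than 1 log2 unit below both scramble arrays. The fall was 2.16-fold (log2 fold change -1.11 ± 0.10, SE; limma adjusted p = 0.00106), and without 1 array the adjusted p was at most 0.012. Echs1 was measured by 1 probe set, so no second one was available to compare.

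The other genes of these steps moved little at their brightest probe sets. Hadhb, the thiolase subunit of the mitochondrial trifunctional protein, read 10.89 and 10.89 on the shBlnc1 arrays, against 10.81 and 10.89 on the scramble arrays. Hadh, the short-chain hydroxyacyl-CoA dehydrogenase, read 11.07 and 11.09 on the shBlnc1 arrays, against 11.12 and 11.09 on the scramble arrays. Both differences were smaller than their standard errors of 0.10: the log2 fold changes were 0.04 (95% interval -0.20 to 0.27) for Hadhb and -0.03 (-0.26 to 0.21) for Hadh. These values lie toward the top of the deposited values, of which the highest was 12.36.

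Acaa2, the mitochondrial thiolase of the last step, gave different answers at its 3 probe sets. The brightest read 10.17 and 10.18 on the shBlnc1 arrays, against 10.25 and 10.26 on the scramble arrays, a log2 fold change of -0.08 that was not called (limma adjusted p = 0.587). The dimmest read 8.04 and 8.05 on the shBlnc1 arrays, against 9.15 and 9.17 on the scramble arrays. At that probe set the groups were separated by more than 1 log2 unit, a 2.17-fold fall (limma adjusted p over all probe sets = 0.00126). The third had a log2 fold change of -0.24, and with the mean of all 3 it was -0.48 (limma adjusted p = 0.011). Hadhb showed a like split: its dim second probe set read 4.85 and 4.80 on the shBlnc1 arrays, against 5.53 and 5.30 on the scramble arrays, a difference of -0.59 (limma adjusted p over all probe sets = 0.0201).

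**Figure D2:**
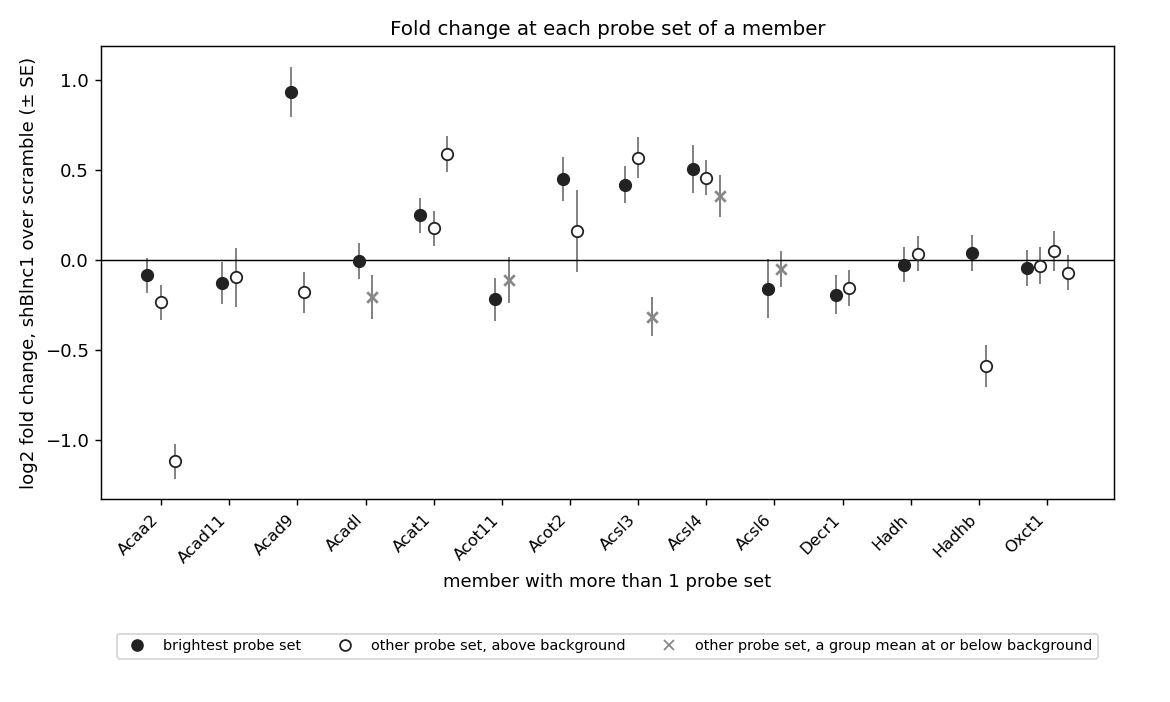
Log2 fold change, shBlnc1 over scramble (vertical axis, bars 1 SE), at every probe set of the 14 genes that have more than 1. Filled points are the brightest probe sets used for the gene, open points other probe sets above background, and crosses those with a group mean at or below it; Acaa2, Hadhb and Acad9 have probe sets far apart, while those of Oxct1, Decr1 and Acad11 lie together.

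The probe sets of a gene were compared for the 14 genes with more than 1, which have 20 probe sets beside the brightest, 15 of them above background in both groups. Of those 15, 11 had the sign of the brightest and 4 the opposite sign, and 5 passed an adjusted p of 0.05 over all probe sets. On 3′-primed arrays, probe sets at different distances from the 3′ end can differ where RNA is broken. For Actb, the control probe set at the 3′ end exceeded that at the 5′ end by log2 values of 1.77 and 1.88 on the shBlnc1 arrays, against 0.99 and 1.15 on the scramble arrays. Its part in these splits was not tested.

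Electron transfer from the dehydrogenases is represented by Etfa, a subunit of electron transfer flavoprotein, and Etfdh, the oxidoreductase that passes its electrons to ubiquinone. Etfa read 10.46 and 10.44 on the shBlnc1 arrays, against 10.82 and 10.80 on the scramble arrays. The groups were well separated against replicates that nearly coincided, a 1.29-fold fall (limma adjusted p = 0.0444). This call is a borderline one, kept in 4 of 11 alternatives. The limma adjusted p was 0.0597 with the replicate number as a block, 0.0679 with quantile-normalized values and 0.0792 with arrays centred on their medians. It was 0.0184 without the dimmest 40 percent of genes and 0.0266 with probe sets averaged. Robust eBayes gave 0.0455 and eBayes with a trend 2.33e-05. Without 1 array the log2 fold change of Etfa was -0.376 to -0.348, and over all 11 alternatives -0.376 to -0.298. Etfdh read 9.52 and 9.44 on the shBlnc1 arrays, against 9.51 and 9.48 on the scramble arrays, with a 95% interval of -0.25 to 0.23 for its log2 fold change.

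The auxiliary enzymes that move or reduce the double bonds of unsaturated fatty acids had shBlnc1 values below all scramble values in each of 3 cases, but only Eci1 was called. Groups that did not overlap were seen in 62.6% of all genes, and in 34.3% with the shBlnc1 arrays below and 28.3% with them above. In the set, all shBlnc1 values were below for 11 genes and above for 8. Eci1, a mitochondrial enoyl-CoA isomerase, read 9.48 and 9.45 on the shBlnc1 arrays, against 10.05 and 9.91 on the scramble arrays. The fall was 1.43-fold (log2 fold change -0.52 ± 0.10, SE; limma adjusted p = 0.0178, and 0.0917 and 0.115 without shBlnc1 replicates 1 and 2). Eci2, the isomerase also found in peroxisomes, and Decr1, the mitochondrial dienoyl-CoA reductase, had log2 fold changes of -0.20 and -0.19, which were not called (limma adjusted p = 0.209 and 0.254). Decr1 was called in eBayes with a trend (adjusted p = 0.0287).

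The 6 thioesterases went both ways, with 2 higher, 1 lower and 3 not called. Of all genes, 11.4% were called higher and 7.18% lower. Acot13, a small thioesterase associated with mitochondria, read 8.52 and 8.43 on the shBlnc1 arrays, against 9.14 and 9.03 on the scramble arrays. Every shBlnc1 value lay below every scramble value by at least 0.5, a 1.53-fold fall (log2 fold change -0.61 ± 0.10, SE; limma adjusted p = 0.00989). The adjusted p was 0.0504 and 0.0817 without shBlnc1 replicates 1 and 2.

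Acot1 and Acot2 encode closely related thioesterases of the cytosol and of mitochondria, and their genes are neighbours on chromosome 12, with 0 annotated genes between them in RefSeq. Acot1 read 4.04 and 3.99 on the shBlnc1 arrays, against 3.54 and 3.05 on the scramble arrays. The scramble replicates lay about as far apart as the nearest arrays of the groups, and the rise was 1.65-fold (log2 fold change 0.72 ± 0.16, SE; limma adjusted p = 0.0254, and 0.112 and 0.102 without shBlnc1 replicates 1 and 2). Acot2 read 4.67 and 4.91 on the shBlnc1 arrays, against 4.42 and 4.27 on the scramble arrays.

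The groups of Acot2 were separate by a small margin, and the rise was 1.36-fold (limma adjusted p = 0.0471). Its adjusted p exceeded 0.05 in each fit without 1 array, at 0.0816 and 0.269 without shBlnc1 replicates 1 and 2 and at 0.0511 and 0.12 without scramble replicates 1 and 2. It was 0.0559 with the replicate number as a block and 0.0845 after quantile normalization. The other Acot2 probe set differed by 0.16 with overlapping groups, and with the mean of both it was 0.30 (limma adjusted p = 0.257). The brightest Acot2 probe set is of a type that can detect several transcripts, as are those of Acsl3, Acaa2 and Acad11. Whether the probe sets of Acot1 and Acot2 also detect the other gene was not tested.

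Acot11, known as the brown fat inducible thioesterase, read 3.03 and 2.80 on the shBlnc1 arrays, against 3.08 and 3.18 on the scramble arrays, not far above background. Its groups did not overlap, but the log2 fold change of -0.22 was not called (limma adjusted p = 0.24). Acot9, a mitochondrial thioesterase, and Acot7, known mainly from brain, had log2 fold changes of -0.06 and 0.06, with 95% intervals of -0.29 to 0.17 and -0.19 to 0.31.

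Of the ketone and malonyl-CoA enzymes 0 of 3 were called by limma, where 18.5% of all genes were called. Before adjustment 1 of the 3, Acat1, was under 0.05, as were 33.8% of all genes. Oxct1, the enzyme that activates acetoacetate so that ketone bodies can be burned, read 9.70 and 9.64 on the shBlnc1 arrays, against 9.70 and 9.73 on the scramble arrays. The groups overlapped, the 95% interval of the log2 fold change was -0.28 to 0.19, and the 3 other probe sets of Oxct1 had log2 fold changes between -0.07 and 0.05. Acat1, the mitochondrial acetoacetyl-CoA thiolase, read 10.79 and 10.80 on the shBlnc1 arrays, against 10.55 and 10.55 on the scramble arrays.

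Both shBlnc1 values of Acat1 were higher, but the difference of 0.25 was not called (limma adjusted p = 0.127). Its dimmest probe set read 9.01 and 8.97 on the shBlnc1 arrays, against 8.38 and 8.42 on the scramble arrays, a difference of 0.59 (limma adjusted p over all probe sets = 0.011), and with the mean of its 3 probe sets the log2 fold change was 0.34 (limma adjusted p = 0.0326). Mlycd, which breaks down malonyl-CoA and so relieves the block on the carnitine shuttle, read 4.50 and 4.50 on the shBlnc1 arrays, against 4.72 and 4.57 on the scramble arrays (log2 fold change -0.15, limma adjusted p = 0.372).

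**Figure D3:**
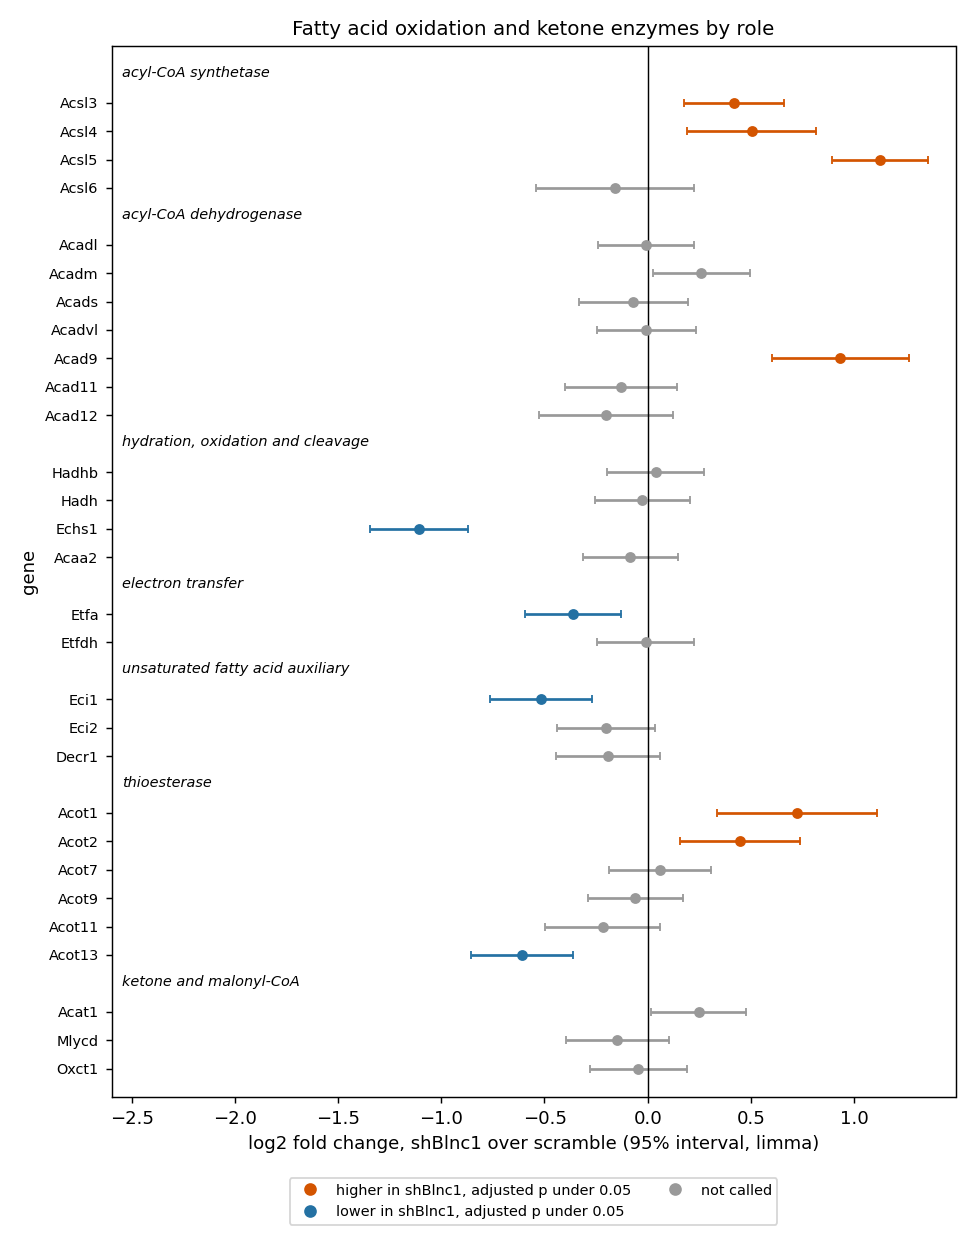
Log2 fold change, shBlnc1 over scramble, of the 29 measured enzymes by role (horizontal axis, points with 95% intervals from limma, n = 2 arrays per group). The synthetases lie right of 0 except Acsl6, Echs1 stands far left, and the intervals of Acadl, Acadvl, Hadhb, Hadh, Acaa2, Etfdh and Oxct1 all include 0.

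Among the 19 genes not called, log2 fold changes ran from -0.22 to 0.26. For 17 of them the whole 95% interval lay within 0.5 of 0, the exceptions being Acsl6 and Acad12, which are dim. Acot11, about as dim as Acad12, lay within 0.5 only narrowly, with a lower bound of -0.498. The intervals of Acadm (0.023 to 0.493) and Acat1 (0.016 to 0.478) also lay within 0.5 but left out 0. The 10 with a log2 fold change within 0.1 of 0 were Acadl, Acadvl, Acads, Hadhb, Hadh, Acaa2, Etfdh, Acot7, Acot9 and Oxct1. Their intervals together spanned -0.33 to 0.31. All these intervals describe the brightest probe sets only. Dimmer probe sets, also above background, differed by -1.12 for Acaa2, -0.59 for Hadhb and 0.59 for Acat1. Their limma adjusted p over all probe sets was 0.00126, 0.0201 and 0.011. Averaging its 3 probe sets gave -0.48 for Acaa2 (limma adjusted p = 0.011). The other probe sets of Oxct1 stayed between -0.07 and 0.05. Of the 19, eBayes with an intensity trend called 3: Acadm, Decr1 and Acat1 (adjusted p = 0.000343 for Acat1).

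Around these enzymes, 33 of 38 other genes of the pathway were measured, and 16 were called, 7 higher and 9 lower. These are 48.5% of the 33, where 18.5% of all genes were called, 11.4% higher and 7.18% lower, and 24.2% of the genes above background in both groups. The list was chosen with earlier results of these data known, so its share is a description and not a test. The 3 transcriptional regulators and the kinase gene Pdk4 were all called lower. Ppara, the nuclear receptor that drives oxidation genes, read 4.41 and 4.28 on the shBlnc1 arrays, against 6.22 and 6.18 on the scramble arrays. Ppara differed by -1.85 (log2) at this probe set, its brightest of 3, and by -1.04 when all 3 were averaged (limma adjusted p = 0.000328 and 0.00228). Pdk4, a kinase that blocks pyruvate oxidation, read 7.55 and 7.65 on the shBlnc1 arrays, against 9.36 and 9.46 on the scramble arrays. Both were separated from scramble by more than 1.5 log2 units. The coactivator gene Ppargc1b had a log2 fold change of -0.84 and the estrogen-related receptor gene Esrra one of -0.49 (limma adjusted p = 0.00261 and 0.0175, the second 0.0983 and 0.113 without shBlnc1 replicates 1 and 2).

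The carnitine shuttle and the peroxisomal enzymes were mixed. Of all genes, 18.5% were called, 11.4% higher and 7.18% lower. Cpt1a and Cpt1c, isoforms of carnitine palmitoyltransferase, had log2 fold changes of 1.04 and 0.84, while Cpt1b, the isoform of muscle and brown fat, had one of -0.72 (limma adjusted p = 0.0124, 0.0196 and 0.00755). Slc22a5, the carnitine importer, was 1.52-fold lower (log2 fold change -0.60, and -0.39 with the mean of its 2 probe sets), and Cpt2 and the carrier gene Slc25a20 had log2 fold changes of 0.06 and -0.004. Of 10 peroxisomal genes, the dienoyl-CoA reductase gene Decr2 was 1.51-fold higher and the bifunctional enzyme gene Ehhadh 1.44-fold lower, and 8 were not called. Of these, without shBlnc1 replicate 1 the adjusted p was 0.0645 for Cpt1a, 0.104 for Cpt1c, 0.0585 for Cpt1b, 0.0701 for Slc22a5, 0.0682 for Decr2 and 0.0557 for Ehhadh. Without shBlnc1 replicate 2 it was 0.0899 for Slc22a5, 0.0941 for Decr2 and 0.158 for Ehhadh, which also had 0.0593 without scramble replicate 2.

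Genes that make or use acetyl-CoA outside the spiral were called in both directions. Acss1, the mitochondrial acetyl-CoA synthetase that uses acetate, read 3.01 and 2.85 on the shBlnc1 arrays, against 4.86 and 4.58 on the scramble arrays, a 3.47-fold fall toward background at its brightest probe set (log2 fold change -1.79, limma adjusted p = 0.000557). With the mean of its 3 probe sets the log2 fold change of Acss1 was -0.51 (limma adjusted p = 0.0213). The size of the fall of Acss1 therefore depended on the probe sets used. Acss2, its cytosolic counterpart, was 2.56-fold higher, and Aacs, which activates acetoacetate in the cytosol, 1.68-fold higher (log2 fold change 0.75, limma adjusted p = 0.00472, and 0.47 with the mean of its 2 probe sets, adjusted p = 0.0196). Acaca, the acetyl-CoA carboxylase that makes malonyl-CoA for lipogenesis, was 1.64-fold higher (adjusted p = 0.00707, and 0.0605 without shBlnc1 replicate 2). Acacb, the isoform tied to the control of oxidation, had a log2 fold change of -0.13 and was not called. Bdh2 was 1.44-fold higher with an adjusted p of 0.0455, which was 0.0555 after quantile normalization, 0.246 without shBlnc1 replicate 2 and 0.0789 and 0.0958 without scramble replicates 1 and 2. Hsd17b10, a mitochondrial hydroxyacyl-CoA dehydrogenase, was 1.39-fold lower (adjusted p = 0.0277, and 0.0797 and 0.184 without shBlnc1 replicates 1 and 2, and 0.0748 without scramble replicate 1).

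**Figure D4:**
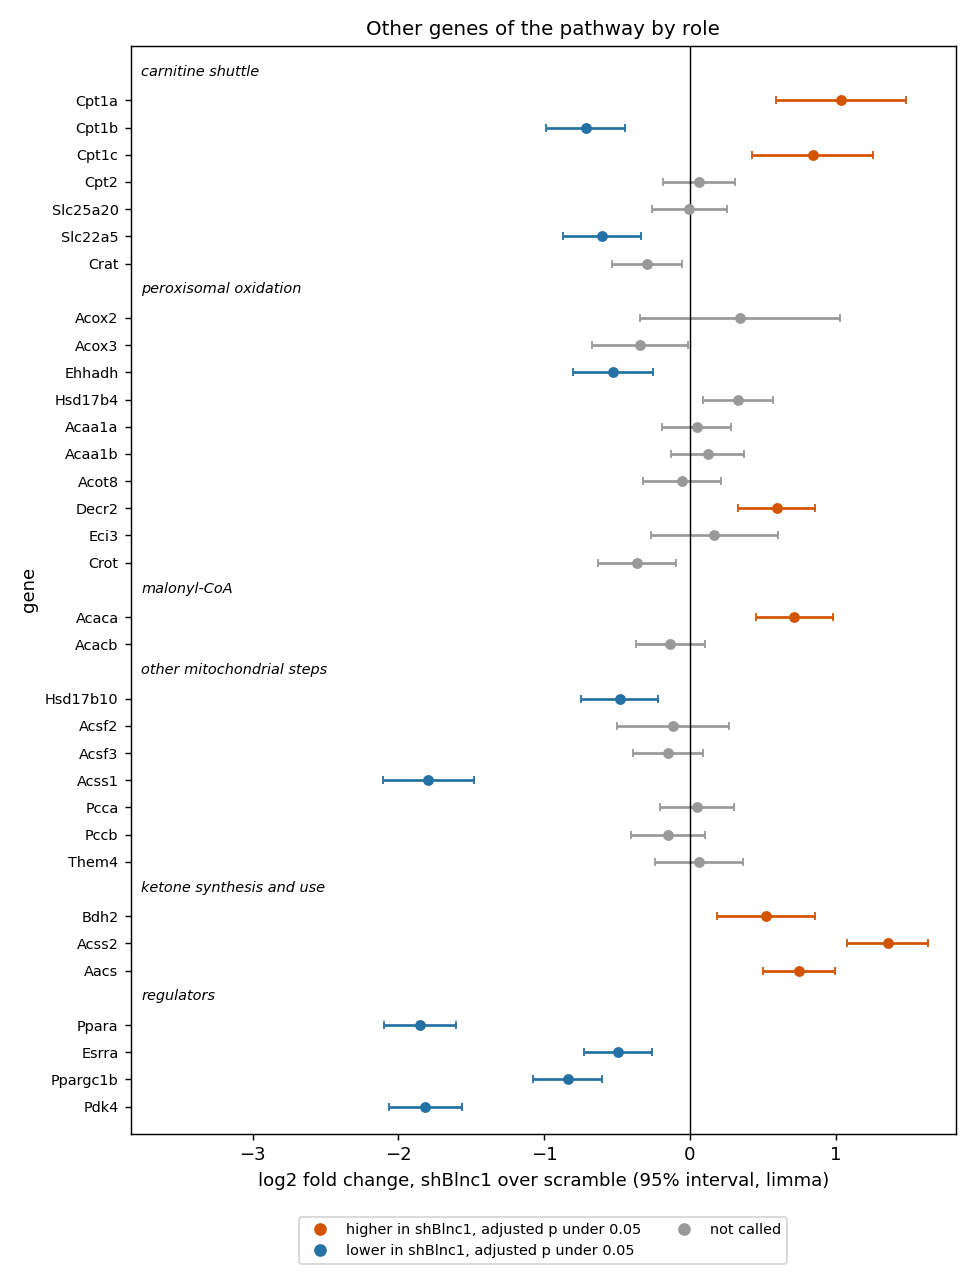
Log2 fold change, shBlnc1 over scramble, of the 33 other measured pathway genes by role (horizontal axis, points with 95% intervals from limma, n = 2 arrays per group). All 4 genes under regulators lie left of 0 and all 3 under ketone synthesis and use lie right of it, a heading that here also holds Acss2, an enzyme of acetate use.

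Several measures of the samples moved with the groups, beside every difference above. Over all genes 11.4% were called higher and 7.18% lower. Of 8 measured hepatocyte markers 6 were lower on the shBlnc1 arrays, and Fgb was at background in both groups. Apoc3, the brightest of the 8, was not called and read 7.20 and 7.17 on the shBlnc1 arrays, against 7.28 and 6.64 on the scramble arrays. The summed level (log2) of the 8, to which Apoc3 adds much, was 7.65 to 7.81 on the shBlnc1 arrays, against 8.45 to 8.68 on the scramble arrays. Of 3 preadipocyte or fibroblast markers, all were higher, with a summed level of 6.11 to 6.26 on the shBlnc1 arrays, against 5.37 to 5.54 on the scramble arrays. Of 7 brown adipocyte markers 5 were lower, 1 was higher, and all were above background in at least 1 group, while 0 of 4 general adipocyte markers were called. Of 4 macrophage markers 1 was higher, Adgre1 (log2 fold change 0.70, limma adjusted p = 0.0133), with a summed level of 5.44 to 5.53 on the shBlnc1 arrays, against 5.15 to 5.27 on the scramble arrays, and of 6 skeletal muscle and 3 endothelial markers 0 were called. The control probe set for 18S ribosomal RNA read 6.64 and 7.01 on the shBlnc1 arrays, against 5.13 and 4.43 on the scramble arrays. The 3′ control probe set of Gapdh exceeded the 5′ one by 0.34 and 0.40 on the shBlnc1 arrays, against 0.09 and 0.04 on the scramble arrays. Liver, like brown fat, expresses the oxidation enzymes. The part of these measures in the differences was not tested.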

How the data were processed

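The authors deposited log2 expression values, 1 per probe set and array. Per the submitters' processing notes affy, RMA and limma were used, with no versions or roles. The log2 scale was read from the values, and beyond the naming of RMA, how they were normalized is not given in the sources. The quantile normalization and median centring used here were applied on top of the deposited values. Per the labels' protocols, Trizol RNA (250 ng) was labelled with a 3′ in vitro transcription kit.

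Of 45037 probe sets other than controls, 28898 carry 1 symbol in the platform annotation, 551 several and 15588 none. Tests used limma 3.58.1 in R 4.3.3 (a two-sided moderated test with lmFit and eBayes over the 45037 probe sets, no covariate, 2 residual and 4.93 prior degrees of freedom), with Benjamini-Hochberg adjustment over 17097 genes. The median standard error was 0.11. Plots used matplotlib 3.10.9. The fit was tested on simulated data. The members, lists and tests were chosen with earlier results of these data known. Every member was accounted for and called members are given by array. Other pathway genes were named when called with a change of at least 0.5, and Esrra, Hsd17b10, Acacb, Cpt2 and Slc25a20 after their values had been seen. The alternatives were quantile normalization, median centring, a filter on the dimmest 40 percent, trended and robust eBayes, averaging a gene's probe sets, each other probe set, a replicate block, and leaving out each array, where a lone array was assumed to vary like the other group.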

Additional observations from a re-analysis of the deposited data

How the results depend on the processing

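With 2 arrays per group, leaving out 1 array changed the counts most. The number of called enzymes of the set, 10 with all arrays, was then 3 to 8, with 2 to 5 higher and 1 to 3 lower. The other pathway genes called numbered 8 to 16, with 4 to 7 higher and 4 to 9 lower. Over all genes 1050 to 2841 were called, with 795 to 1681 higher and 255 to 1168 lower. After quantile normalization 6 enzymes were called, 3 of them higher, and over all genes the split was 1514 higher and 1564 lower, in place of 1941 and 1228, and 2383 and 844 after median centring. With the replicate block, 8 enzymes were called, without Etfa and Acot2. In eBayes with a trend the number rose to 13, with 8 higher and 5 lower, and 4370 of all genes were called. The replicate numbers are not said to mark a shared preparation, and deviations of same-numbered arrays correlated at r = 0.03 across genes. All 10 called enzymes kept their sign in each of 11 alternatives, and Acsl5, Acad9 and Echs1 were called in each. Single probe sets of opposite sign, with a call at one of the 2 probe sets, were seen for Acad9 (log2 fold change -0.18), Acsl3 (-0.31, at background) and Hadhb (-0.59); those of Hadh and Oxct1 were uncalled at both. Of the alternative values of single enzymes, 33 lost and 8 gained a call. Genes near 0, such as Acadl, Acadvl and Etfdh, changed sign with the scaling. The median over the set came to -0.08 with quantile normalization and to 0.02 with median centring, where that over all genes was 0.03.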
